A study of Mus musculus with 12 samples.

Results

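The PLAG family of zinc finger transcription factors has 3 genes, Plagl1, Plag1 and Plagl2, and was measured by 4 of the 23521 array rows that carry exactly 1 gene symbol. Plagl1 has 2 rows, and Plag1 and Plagl2 have 1 row each, so that the family makes up 3 of the 22180 genes with such a row. Plagl1 was selected on its rise in regulatory T cells treated with azacitidine, whereas Plag1 and Plagl2 were included as its relatives and not for their values. Plagl1 differences that involve a regulatory T cell array are therefore given as a description with no test, and its response in CD4 effector cells was tested: that mean difference uses none of those arrays, although its SE comes from the spread in all 4 groups.

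The PLAG proteins share an amino-terminal block of C2H2 zinc fingers through which they bind GC-rich DNA. Plag1 is a proto-oncogene that is activated by chromosome rearrangements in pleomorphic adenomas of the salivary gland, and its close relative Plagl2 can also transform cells. Plagl1, known as Zac1 or Lot1, causes cell cycle arrest and apoptosis when expressed in cell lines, acts as a coactivator of p53, and is imprinted: in most tissues the maternal copy is methylated and silent at the CpG island promoter, and the paternal copy is transcribed. Azacitidine (AzaC), an analogue of cytidine, enters RNA and DNA and traps DNA methyltransferases, so that methylation is lost as cells divide.

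The arrays held RNA of activated mouse spleen T cells from co-cultures of 1 part natural regulatory T cells (nTregs) and 10 parts Treg-depleted T cells. The nTregs came from B6.Foxp3GFP mice, in which a green fluorescent protein reports Foxp3, and the Treg-depleted cells from a cross of that strain with mice that express the red fluorescent protein DsRed, called B6.CAGDSRED (DsRed driven by the broadly active CAG promoter), although the strain label names that cross for all arrays. All cultures received anti-CD3/CD28 beads and 500 U/mL human interleukin-2 for 2 days and then 1 µM AzaC or PBS for 2 more days, after which nTregs were sorted as CD4 positive, DsRed negative and Foxp3 reporter positive, and CD4 effector cells (CD4 cells below) as CD4 positive cells with DsRed and without the reporter. The 4 groups, labelled CD4 PBS, CD4 AZA, nTreg PBS and nTreg AZA, had 3 arrays each. Where the 2 populations came from different strains, a difference between populations cannot be told apart from one between strains. The labels give neither the age of the mice nor whether arrays of 1 group stem from different mice or cultures, and p-values then reflect only how far these samples spread, which may be technical.

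Array medians lay between 6.67 and 6.80 on the log2 scale of the deposited signals, and no pair of arrays was identical. All 6 Treg markers (Foxp3, Ikzf2, Il2ra, Ctla4, Tnfrsf18 and Nrp1) were higher in nTregs than in CD4 cells under both treatments, and the T cell markers Cd3e, Cd3g, Cd3d and Cd4 had mean signals of 10.84 to 13.11 in the 4 groups. The array nTreg PBS 1 had the lowest mean correlation with the other arrays (0.961; CD4 PBS 3 had 0.970, and the other arrays 0.977 to 0.982), and results that rest on it are given with and without it. A row was called where limma's p, adjusted by Benjamini-Hochberg over all 23521 rows, lay under 0.05. Under PBS, Cd4 and Cd3e were called lower in nTregs than in CD4 cells, where 7.59% of all rows were called. The log2 differences were −0.83 for Cd4 (SE 0.15, adjusted p = 0.00444) and −0.77 for Cd3e (SE 0.18, adjusted p = 0.0157). With 1 array left out they ran from −0.95 to −0.60 and from −0.92 to −0.50, with adjusted p up to 0.0205 and 0.0533. Neither was called with AzaC. In bulk RNA, fewer cells of a type and less RNA per cell cannot be told apart.

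Plagl1 is shown first with the bases before its RefSeq start, since AzaC acts on cytosine methylation and CpG pairs are where mammalian DNA is mostly methylated. RefSeq's promoter table (GRCm38.p6) matched 1 of the 3 members, Plagl1, and placed the 250 bases before its start at chr10:13090582-13090831 on the plus strand. CpG pairs are in capitals:

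Plagl1 promoter: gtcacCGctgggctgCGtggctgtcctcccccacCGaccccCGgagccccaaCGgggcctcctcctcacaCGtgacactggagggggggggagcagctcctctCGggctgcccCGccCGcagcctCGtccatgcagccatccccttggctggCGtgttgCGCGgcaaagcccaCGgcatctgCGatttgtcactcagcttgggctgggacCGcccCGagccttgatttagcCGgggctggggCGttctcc

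This stretch held 19 CpG pairs, against a median of 6 over the same stretch of the 32851 promoters in that table, of which 19.7% held 19 or more. Its GC content was 70.4%. Methylation was not measured in this series, and which of the gene's promoters the labelled RNA came from was not tested.

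The brighter of the 2 Plagl1 rows gave 4 levels that did not overlap. It read 5.92, 5.89 and 5.84 on the log2 scale on the 3 CD4 PBS arrays and 6.41, 6.13 and 6.23 on the CD4 AZA arrays. In nTregs it read 6.73, 6.91 and 6.68 under PBS and 8.90, 9.07 and 9.24 with AzaC. In the order CD4 PBS, CD4 AZA, nTreg PBS and nTreg AZA, each group thus lay wholly above the one before it. The widest gap between neighbouring groups was the one between the nTreg groups. This order includes the nTreg values on which the gene was chosen, so it is a description only. Full separation of 2 groups was also common: 24.2% of rows showed it between PBS and AzaC in nTregs and 23.1% in CD4 cells. Between the populations, 26.2% of rows showed it under PBS and 31.9% with AzaC. How many rows keep all 4 groups apart was not counted.

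The mean of this row was 6.77 ± 0.12 (SD, n = 3) in nTregs under PBS and 9.07 ± 0.17 with AzaC, a log2 difference of 2.30 (SE 0.12), or 4.93-fold. This is the value on which the gene was chosen, in a comparison where 1.85% of all rows were called, and nothing is read from that share here. Under PBS the row was 0.89 (SE 0.12) higher in nTregs than in CD4 cells, and with AzaC 2.81 (SE 0.12) higher. The difference between the AzaC effects of nTregs and CD4 cells was 1.92 (SE 0.16), in a comparison where 0.170% of rows were called. It contains the rise on which the gene was chosen, so nothing is read from that share either. Leaving out nTreg PBS 1 gave 2.28 for the effect in nTregs, and leaving out any 1 of the 12 arrays gave 2.21 to 2.39.

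**Figure D1:**
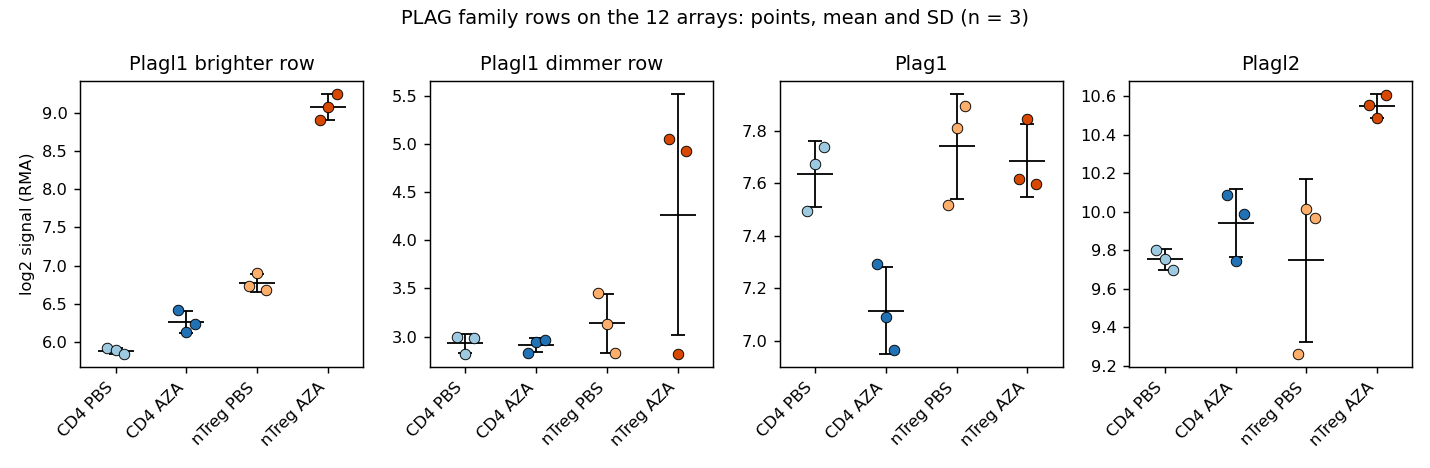
Log2 signal of the 4 PLAG family rows on the 12 arrays, by group; points are arrays, and the bars are the mean and SD of 3 arrays, with a separate vertical axis for each row. The brighter Plagl1 row climbs from 5.84 to 5.92 in CD4 PBS to between 8.90 and 9.24 in nTreg AZA, and nTreg PBS 1 is the low Plagl2 point at 9.26.

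In CD4 cells, the Plagl1 difference between AzaC and PBS did not pass, at a low signal. The brighter row stood at 5.88 ± 0.04 under PBS and 6.26 ± 0.14 with AzaC, a log2 difference of 0.38 (SE 0.12, 95% interval 0.13 to 0.62, adjusted p = 0.136), or 1.30-fold. Both means lay below the array medians (6.67 to 6.80), and no background calls were used. The sizes of this difference and of the row's differences between the populations are therefore not exact. Fitted on the 6 CD4 arrays alone, the adjusted p was 0.134. All 3 AzaC arrays lay above all 3 PBS arrays, as 23.1% of all rows had group values without overlap in this comparison, in which 1.64% were called. The adjusted p ranged from 0.0805 to 0.414 over the 23 alternative settings, so the difference was called under none of them. Treg markers moved in the same cells: of 6, Foxp3 (by 1.57, SE 0.16, adjusted p = 2.486e-04) and Il2ra (by 0.59, SE 0.09, adjusted p = 0.00426) rose with AzaC, and the log2 of the summed signal of the list was 13.42 to 13.44 on the CD4 PBS arrays, 13.80 to 13.88 on the CD4 AZA arrays and 14.44 to 14.68 on the nTreg PBS arrays. Their part in the Plagl1 difference was not tested.

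The dimmer Plagl1 row lay below the fifth percentile of its array (3.51 to 3.83) on 10 of the 12 arrays. The 2 arrays above it were nTreg AZA 1 at 5.05 and nTreg AZA 3 at 4.92. nTreg AZA 2 read 2.82, near the 3.45, 3.13 and 2.83 of the nTreg PBS arrays. The nTreg AZA group was thus split by this row although its 3 arrays lay close together in the brighter row, and the reason was not tested.

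The mean of the dimmer row was 3.14 ± 0.31 in nTregs under PBS and 4.27 ± 1.25 with AzaC, a log2 difference of 1.13 (SE 0.41) that became 1.85 without nTreg AZA 2, 0.74 without nTreg AZA 1 and 0.80 without nTreg AZA 3. In CD4 cells the 6 arrays read 2.82 to 2.99 with no separation by drug (log2 difference −0.02, SE 0.41, 95% interval −0.90 to 0.86, adjusted p = 0.986; 0.04 after a second quantile normalization). Since nearly all of these signals are among the lowest of their arrays, the sizes of these differences are not exact, and the sources used here do not give the transcripts that its probes read.

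Plagl2 was raised by AzaC in nTregs. It read 10.56, 10.49 and 10.61 on the nTreg AZA arrays and 9.26, 10.02 and 9.97 on the nTreg PBS arrays, with the lowest value on nTreg PBS 1. The groups did not overlap, as held for 24.2% of all rows. The mean rose from 9.75 ± 0.42 to 10.55 ± 0.06, a log2 difference of 0.80 (SE 0.17, 95% interval 0.44 to 1.16, adjusted p = 0.0273), or 1.74-fold. Of the 2 members tested in this comparison, Plagl2 alone was called, against 1.85% of all rows.

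The size of the Plagl2 rise depended in part on 1 array: without nTreg PBS 1 the log2 difference was 0.56 (adjusted p = 0.0215). The call was lost without nTreg AZA 1, 2 or 3 (adjusted p = 0.0886, 0.0804 and 0.115), and in 17 of 23 alternative settings it was kept.

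In CD4 cells Plagl2 read 9.80, 9.76 and 9.70 under PBS and 10.09, 9.75 and 9.99 with AzaC. The groups overlapped, and the log2 difference of 0.19 (SE 0.17, 95% interval −0.17 to 0.55) did not pass (adjusted p = 0.615; the difference was 0.12 without CD4 AZA 1 and 0.29 without CD4 AZA 2). The test of the difference between the populations did not pass either: the AzaC effect on Plagl2 was 0.61 (SE 0.24) larger in nTregs, with an interval of 0.11 to 1.12 and an adjusted p of 0.236, and 0.37 larger without nTreg PBS 1 (adjusted p = 0.270). Under PBS the 2 populations had nearly the same mean (nTregs minus CD4 cells −0.0041, SE 0.17, 95% interval −0.36 to 0.35, adjusted p = 0.991; 0.09 after a second quantile normalization), but without nTreg PBS 1 the difference was 0.24 (adjusted p = 0.271).

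With AzaC, Plagl2 was 0.61 (SE 0.17) higher in nTregs than in CD4 cells (95% interval 0.25 to 0.97, adjusted p = 0.0444), and every nTreg AZA array lay above every CD4 AZA array. This call sat close to the threshold. It was lost without any 1 of the 9 arrays of the CD4 PBS, CD4 AZA and nTreg AZA groups (adjusted p = 0.0543 to 0.146), and was kept without each nTreg PBS array.

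Plag1 stood lower with AzaC in CD4 cells and showed no detectable response in nTregs. In CD4 cells it read 7.49, 7.67 and 7.74 under PBS and 7.29, 7.09 and 6.96 with AzaC. All AzaC values lay below all PBS values. The log2 difference of −0.52 (SE 0.13, 95% interval −0.80 to −0.24) did not pass at an adjusted p of 0.0642, and the difference was called in 4 of 23 alternative settings, among them the fit without nTreg PBS 1 (adjusted p = 0.0205). In CD4 cells limma thus called 0 of the 4 family rows, against 1.64% of all rows. The unadjusted p lay under 0.05 for 2 of the 4, Plag1 and the brighter Plagl1 row, against 14.9% of all rows, and the group values of these 2 did not overlap, against 23.1% of all rows.

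In nTregs Plag1 read 7.52, 7.81 and 7.90 under PBS and 7.62, 7.85 and 7.59 with AzaC. The groups overlapped fully, and the log2 difference was −0.05 (SE 0.13, 95% interval −0.33 to 0.22, adjusted p = 0.856). Its sign turned, at 0.0065, when arrays were centred on their medians and, at 0.023, without nTreg PBS 3, and it was −0.17 without nTreg PBS 1. The AzaC effects of the populations differed by 0.47 (SE 0.18, 95% interval 0.07 to 0.86, adjusted p = 0.242), which did not pass.

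Plag1 differed between the populations with AzaC. It was 0.57 (SE 0.13) higher in nTregs (7.69 ± 0.14) than in CD4 cells (7.11 ± 0.17), with a 95% interval of 0.29 to 0.85 and an adjusted p of 0.0165, and the arrays did not overlap. The call was lost without CD4 AZA 2 or 3 or nTreg AZA 2 (adjusted p = 0.0506, 0.0824 and 0.0838). Under PBS the difference was 0.11 (SE 0.13, 95% interval −0.17 to 0.38, adjusted p = 0.675), and the arrays overlapped; it was 0.22 without nTreg PBS 1, 0.070 without nTreg PBS 2 and 0.027 without nTreg PBS 3. Both members tested were thus called with AzaC, where 6.41% of all rows were, and neither under PBS, where 7.59% were; group values did not overlap for 31.9% and 26.2% of rows. The comparisons with AzaC share arrays with those within nTregs and within CD4 cells.

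**Figure D2:**
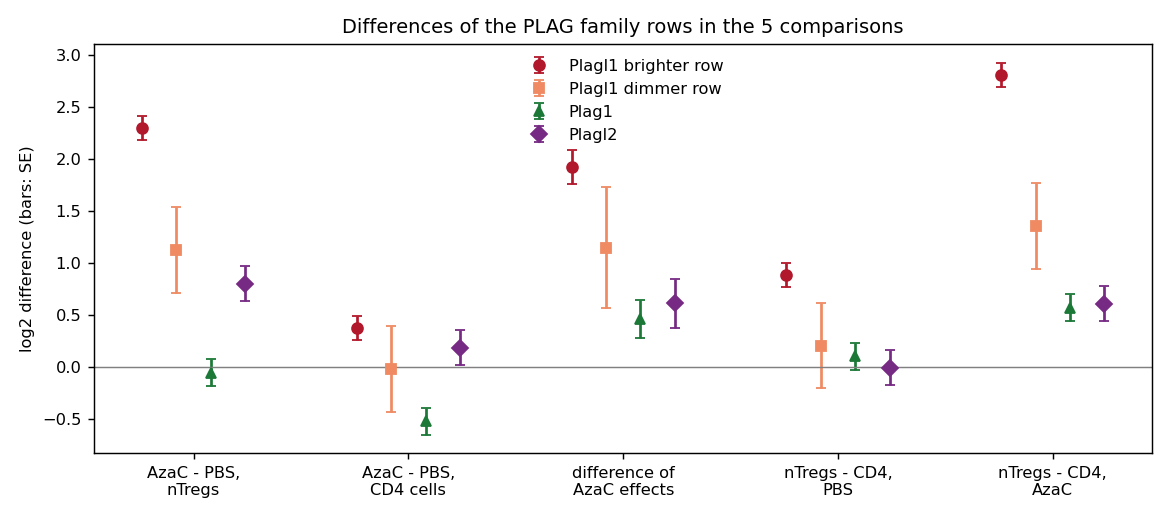
Log2 differences of the 4 PLAG family rows in the 5 comparisons; points are the fitted differences and bars their SE. The brighter Plagl1 row lies at 2.30, 0.38, 1.92, 0.89 and 2.81 from left to right, and Plag1 is the one row below −0.50, in CD4 cells.

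CD8 T cell markers moved with Plagl1 and Plagl2 in nTregs. Both markers, Cd8a and Cd8b1, rose with AzaC there (by 1.39, SE 0.19, adjusted p = 0.00202, and by 0.72, SE 0.15, adjusted p = 0.0232, the latter lost without nTreg PBS 1 or any 1 nTreg AZA array). The log2 of their summed signal was 10.35 to 10.69 on the nTreg PBS arrays and 11.24 to 11.37 on the nTreg AZA arrays, against 10.14 to 10.40 and 9.74 to 10.31 on the CD4 PBS and CD4 AZA arrays. Cd8a averaged 6.86 in nTregs under PBS, near the array medians, and 8.24 with AzaC. Cd4 itself differed by 0.13 (SE 0.15, adjusted p = 0.689) in nTregs and by −0.11 without nTreg PBS 1.

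Of the other marker lists, 4 of 5 T cell, 5 of 6 B cell and 3 of 7 erythroid and platelet markers had a row with 1 symbol. Of 10 myeloid and dendritic cell markers, Fcer1g rose and Itgam fell in nTregs with AzaC, and of 5 NK cell markers Eomes rose. In this comparison 0 of 4 T cell, 0 of 5 B cell and 0 of 3 erythroid and platelet markers were called, against 1.85% of all rows. Limma's unadjusted p lay under 0.05 for 3 myeloid, 4 NK, 0 T cell, 0 B cell and 0 erythroid and platelet markers, against 16.4% of all rows. The uncalled NK markers went both ways: Klrd1 stood at 0.44, Klre1 at 0.40, Klrb1c at −0.50 and Ncr1 at −0.12. With 1 array left out, the adjusted p ran from 0.0142 to 0.130 for Fcer1g, from 0.0127 to 0.147 for Itgam and from 0.00108 to 0.0120 for Eomes. The summed signal of the myeloid list was 10.24 to 10.40 under PBS and 10.08 to 10.21 with AzaC, that of the NK list 9.10 to 9.17 and 9.56 to 9.72, that of the B cell list 8.99 to 9.17 and 8.87 to 9.15, and that of the erythroid and platelet list 8.69 to 8.85 and 8.53 to 8.70. Between the populations, the B cell marker Cd79b was higher in nTregs, by 0.80 (SE 0.16, adjusted p = 0.00750) under PBS and by 1.08 (SE 0.16, adjusted p = 7.958e-04) with AzaC. The other 4 B cell markers were not called. Under PBS, Klrd1 (−1.303, adjusted p = 5.760e-04) and Eomes (−0.73, adjusted p = 0.00231) were lower in nTregs, and neither was called with AzaC. Fcer1g was called higher in nTregs with AzaC only (0.54, adjusted p = 0.02998; 0.0116 to 0.106 with 1 array left out). The NK sum was 9.752 to 9.846 on the CD4 PBS arrays and 9.498 to 9.784 on the CD4 AZA arrays. On the nTreg AZA arrays this sum thus lay within the CD4 AZA range and below the CD4 PBS range. The nTregs had been sorted as CD4 positive, DsRed negative and reporter positive, and the purity of the sort was not examined here. The part of these markers in the differences of the 3 family genes was not tested.

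Plagl1 is described in mice as a member of a network of imprinted growth genes, several of which it can regulate. Of 18 such genes, 16 had a row with exactly 1 symbol, and 0 of 16 were called in either population (unadjusted p under 0.05 in limma for 0 genes in nTregs and 2 in CD4 cells, against 16.4% and 14.9% of all rows). Their median log2 difference was −0.06 in nTregs and 0.08 in CD4 cells, beside −0.04 and 0.01 over all rows, and the values ran from −0.16 to 0.22 and from −0.16 to 0.35.

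Except for Igf2r (8.73 to 9.16), the group means of the network genes reached at most 7.67. Many lay below the array medians (6.67 to 6.80). RMA compresses differences of dim probe sets, and no background calls were used. The small differences of these rows therefore do not show that the genes did not respond. Meg3 had the largest AzaC difference (0.35, SE 0.14, adjusted p = 0.266), and Peg3 stood at 0.24 (SE 0.096, adjusted p = 0.255), both in CD4 cells. Igf2, a fetal growth factor, differed by 0.13 in nTregs (6.65 ± 0.10 under PBS, 6.79 ± 0.08 with AzaC; SD, n = 3). Cdkn1c, the inhibitor of cyclin-dependent kinases p57, differed by −0.03, and Dlk1, a Notch pathway ligand, by −0.12. Igf2r, the receptor that clears IGF2, differed by 0.22. Without nTreg PBS 1 these 4 differences were 0.084 for Igf2, 0.098 for Cdkn1c, −0.12 for Dlk1 and 0.015 for Igf2r. In CD4 cells Igf2, Cdkn1c, Dlk1 and Igf2r stood at 0.17, −0.14, 0.21 and 0.12, with SEs of 0.10 for Igf2, 0.12 for Cdkn1c and Dlk1 and 0.15 for Igf2r in both populations. With 1 array left out, these CD4 differences ran from 0.11 to 0.23, from −0.20 to −0.057, from 0.054 to 0.29 and from 0.059 to 0.20.

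Among 15 reported targets of PLAG proteins, 14 had a row. In CD4 cells 1 was called and in nTregs 0, against 1.64% and 1.85% of all rows. Limma's unadjusted p lay under 0.05 for 5 and 3 genes, against 14.9% and 16.4% of all rows. The called gene was Cdkn1a, the p53-induced inhibitor p21. It rose by 1.95 (SE 0.12, adjusted p = 3.28e-06) in CD4 cells, where the Plagl1 difference was 0.38, and stood at 0.33 (SE 0.12, adjusted p = 0.180; 0.21 without nTreg PBS 1) in nTregs, where the Plagl1 difference was 2.30. Its level under PBS was 11.82 ± 0.21 in nTregs and 9.78 ± 0.10 in CD4 cells. Whether this level or Plagl1 had a part in the Cdkn1a differences was not tested.

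The other 13 targets were not called in either AzaC comparison, and 2 of them differed between the populations. Of all rows, 7.59% were called between the populations under PBS and 6.41% with AzaC. Tcf4, a helix-loop-helix transcription factor, was 0.81 higher in nTregs with AzaC (adjusted p = 0.00287), where its means were 8.35 ± 0.03 and 7.54 ± 0.27. Bnip3, a mitochondrial cell death protein reported as a PLAGL2 target, was 0.52 higher in nTregs under PBS and 0.53 higher with AzaC, and with 1 array left out its adjusted p ran from 0.0212 to 0.160 and from 0.0228 to 0.162. The median AzaC difference over the list was −0.03 in nTregs and 0.10 in CD4 cells.

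**Figure D3:**
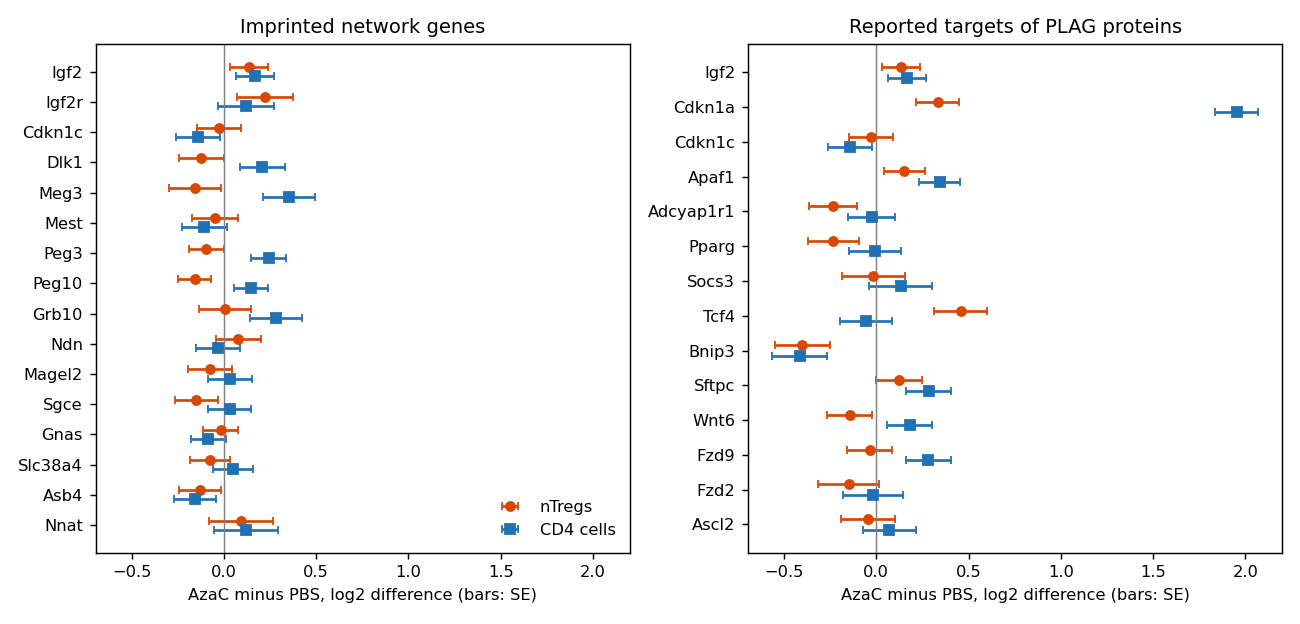
AzaC minus PBS log2 differences of 16 imprinted network genes (left) and 14 reported targets of PLAG proteins (right) in nTregs (circles) and CD4 cells (squares), with SE bars. Cdkn1a in CD4 cells, at 1.95, is the one called value, and the imprinted genes lie between −0.16 and 0.35.

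No gene of imprint maintenance and no partner of PLAG proteins was called between AzaC and PBS in either population. Of 9 genes of imprint maintenance, 0 were called in either population, against 1.85% of all rows in nTregs and 1.64% in CD4 cells. Limma's unadjusted p lay under 0.05 for 2 in nTregs and 1 in CD4 cells, against 16.4% and 14.9% of all rows. Dnmt1, which copies methylation after replication, stood at 0.33 in nTregs (SE 0.18, adjusted p = 0.383; 0.082 without nTreg PBS 1) and 0.22 in CD4 cells (0.14 to 0.35 with 1 array left out), and its recruiter Uhrf1 at 0.64 (SE 0.19, adjusted p = 0.107) and 0.19 (0.11 to 0.26 with 1 array left out). For Uhrf1 in nTregs the difference was 0.36 without nTreg PBS 1 and 0.82 (adjusted p = 0.0411) without nTreg PBS 2, and the adjusted p reached 0.303 with 1 array left out. Of 7 measured cofactors and partners of PLAG proteins, 0 were called in either population. Their limma unadjusted p lay under 0.05 for 2 in nTregs and 1 in CD4 cells, against the same shares of all rows. Kpna2, an importin that carries PLAG1 into the nucleus, was 0.39 lower in nTregs than in CD4 cells with AzaC (adjusted p = 0.0242; 0.0129 to 0.106 with 1 array left out). Uhrf1 was lower in nTregs than in CD4 cells under PBS, at −0.83 (SE 0.19, adjusted p = 0.0142). With 1 array left out its adjusted p ran from 0.00545 to 0.0638 and the difference from −1.01 to −0.56. Of all rows, 7.59% were called between the populations under PBS and 6.41% with AzaC.

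Neighbouring genes were read from the order of RefSeq's gene table, with the 4 nearest measured genes on each side. Around Plagl1, 0 of 8 neighbours were called in either population, against 1.85% of all rows in nTregs and 1.64% in CD4 cells. The log2 differences of these neighbours ran from −0.37 to 0.19 in nTregs and from −0.58 to 0.14 in CD4 cells. Around Plag1, 0 of 8 were called; Chchd7, which lies next to Plag1 and codes for a mitochondrial protein, stood at −0.43 in nTregs (SE 0.15, adjusted p = 0.190) and −0.40 in CD4 cells (adjusted p = 0.242).

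Around Plagl2, 1 of 8 neighbours was called in nTregs and 0 in CD4 cells, against 1.85% and 1.64% of all rows. Kif3b, a subunit of the kinesin-2 motor, rose by 0.78 (SE 0.14, adjusted p = 0.0113; 0.0597 and 0.0618 without nTreg AZA 1 and 2) and stood at −0.29 in CD4 cells. Pofut1, a fucosyltransferase of Notch receptors that lies between Plagl2 and Kif3b in this order, stood at 0.66 (SE 0.17, adjusted p = 0.0656) in nTregs and −0.08 in CD4 cells. These 2 genes and Plagl2 are consecutive among the measured genes and had the 3 highest differences of the 9 in nTregs. With 1 array left out, these differences ran from 0.56 to 0.94 for Plagl2 and from 0.61 to 0.88 for Kif3b. The lowest Plagl2 value was the one without nTreg PBS 1, and Pofut1 was not examined with arrays left out.

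**Figure D4:**
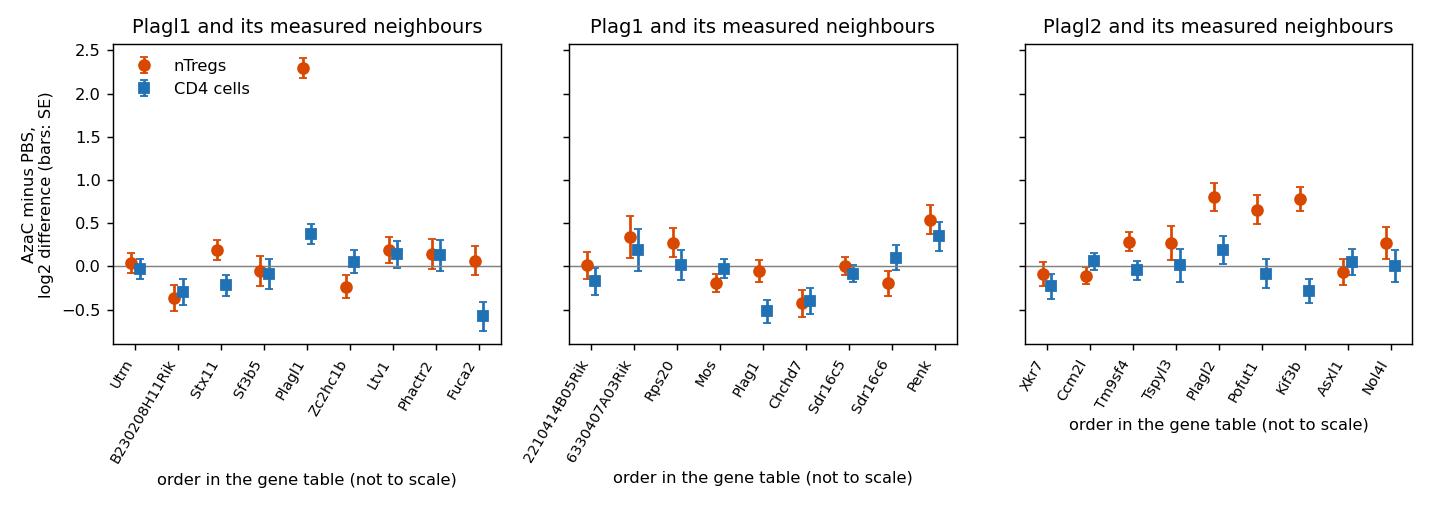
AzaC minus PBS log2 differences of the 3 PLAG genes and of the 4 nearest measured genes on each side, in table order and not to scale, in nTregs (circles) and CD4 cells (squares) with SE bars. Plagl1 at 2.30 stands above neighbours between −0.37 and 0.19, while Plagl2, Pofut1 and Kif3b lie at 0.80, 0.66 and 0.78 in nTregs.

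The genes whose pattern was most like that of the brighter Plagl1 row were found by Pearson's r over the 12 arrays among 18784 genes, which share their arrays, groups and normalization. The 6 closest were Muc1, a membrane mucin (r = 0.983), Nfat5, a transcription factor of the osmotic stress response (0.974), Mdk, the growth factor midkine (0.973), Birc3, an inhibitor of apoptosis (0.972), Ttn, the muscle protein titin (0.970), and Cxcl10, a chemokine (0.969). Muc1 had the largest difference in nTregs of the 6, with group means of 7.25, 7.55, 7.60 and 9.12 in the order CD4 PBS, CD4 AZA, nTreg PBS and nTreg AZA. All 6 had their highest mean in nTreg AZA, 0.42 to 1.53 above nTreg PBS, and 105 genes had an r over 0.9.

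The 4 genes most opposite to Plagl1 were Blm, a RecQ helicase (r = −0.978), Tmem71 (−0.954), Esco2, an acetyltransferase of cohesin (−0.954), and Depdc1b (−0.950). They stood 0.38 to 0.86 lower in nTreg AZA than in nTreg PBS. Over the 9 arrays without nTreg AZA, r was 0.64 to 0.86 for the closest and −0.79 to −0.90 for the opposite genes, and 0 of the 6 closest stayed among the 6 closest, so that this order rests on the nTreg AZA arrays. Without nTreg PBS 1, 2 of the 6 stayed. Of the family, Plagl2 had an r of 0.82 with the brighter Plagl1 row, the dimmer Plagl1 row 0.71 and Plag1 0.34. A higher r was found for 1.75%, 4.43% and 19.4% of the 18784 genes, in the same order. These values include the nTreg AZA arrays on which Plagl1 was chosen and Plagl2 was called. They are therefore no separate evidence of likeness within the family.

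**Figure D5:**
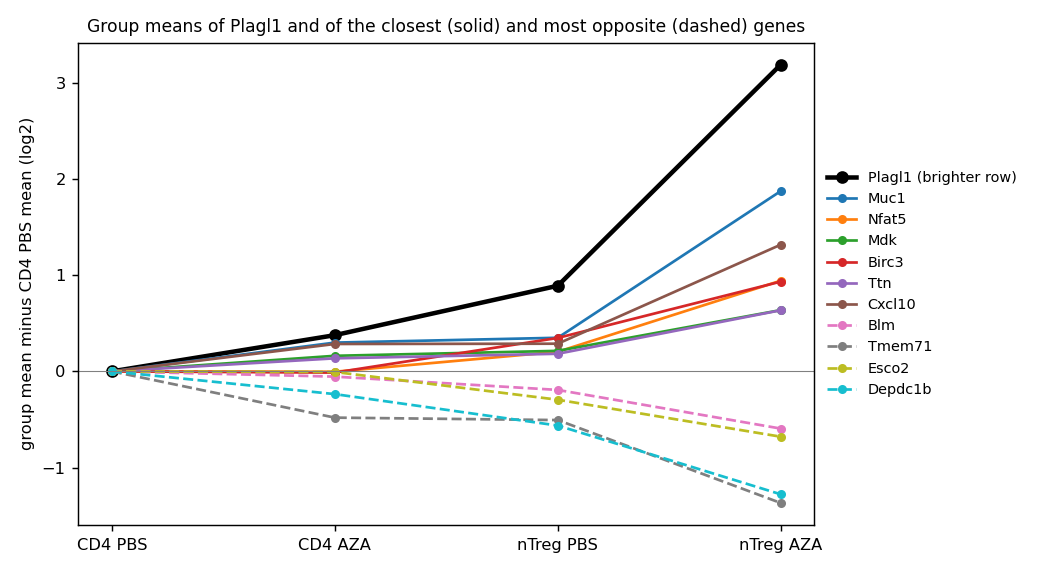
Group means minus the CD4 PBS mean on the log2 scale for the brighter Plagl1 row, the 6 genes with the highest (solid) and the 4 with the lowest (dashed) correlation with it over 12 arrays; lines join the groups and mark no time course. The Plagl1 line ends highest, and each solid line has its highest point in nTreg AZA.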

How the data were processed

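RNA of 12 samples was hybridised to 1-colour Affymetrix arrays, 3 in each of 4 groups. The authors deposited log2 signals; the submitters' processing notes name RMA and Affymetrix Expression Console; versions and the annotation build are not given in the sources used here. RMA makes the arrays' distributions alike and compresses differences of dim probe sets, and no background calls were used here. Of 41345 rows, 23521 carried exactly 1 gene symbol in GEO's platform annotation, 1814 several and 16010 none; rows with several or none were not named.

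limma 3.58.1 (R 4.3.3, statmod 1.5.0) was fitted to the log2 values of all 23521 rows and 12 arrays, with 1 mean per group and moderated variances, and p-values were adjusted by Benjamini-Hochberg over all rows in each of 5 comparisons. The code was tested on simulated data. The number of arrays limits the precision: the median SE of a difference was 0.13, with 8 residual degrees of freedom. The summed level of a marker list is log2 of the sum of its linear signals.

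The members, the gene lists and the tests were chosen with earlier results of these data known. Named are all member rows, the 6 genes most and the 4 least correlated with the brighter Plagl1 row (1 row per gene; predicted models, Riken clones, small RNAs, receptor segments and histone cluster genes passed over), the 4 nearest measured neighbours on each side in RefSeq's gene table (GRCm38.p6, order only), up to 4 called genes of each list, and Foxp3, Cd4, Cd8a, Cd8b1, Igf2, H19, Cdkn1c, Igf2r, Dlk1, Cdkn1a, Dnmt1 and Uhrf1 where measured. Alternatives were a filter on dim rows, 2 scalings, replicate blocks, the groups compared alone, other choices of rows, array weights, other variance moderation and leaving out each array.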

Additional observations from a re-analysis of the deposited data

Results flagged for a closer look

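Cdkn1a and Klrd1 responded differently to AzaC in the 2 populations by limma's test of the difference itself. For Cdkn1a, a reported target of PLAG proteins, the AzaC effect in nTregs minus that in CD4 cells was −1.62 (SE 0.16, adjusted p = 0.00148, 3 arrays a group), from 0.33 in nTregs and 1.95 in CD4 cells. For Klrd1, which codes for the NK cell receptor subunit CD94, the same difference was 1.78 (SE 0.26, adjusted p = 0.0186), with −1.35 in CD4 cells; the adjusted p was 0.0548 without CD4 AZA 1, 0.0580 without nTreg AZA 1, 0.0933 with every row of the table and 0.111 without moderation.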

How the results depend on the processing

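Over all alternatives, no called value of the PLAG family changed sign. Plagl2 in nTregs stayed at 0.80 but was not called with only the groups compared (adjusted p = 0.155), with every row (0.0908) or without moderation (0.109). Plagl2 between the populations with AzaC stayed at 0.61 but was not called with the replicate block (0.0612), every row (0.106) or no moderation (0.127). Plag1 in CD4 cells was called without dim rows (−0.52, adjusted p = 0.0493), with arrays centred on their medians (−0.59, 0.0416) and with array weights (−0.56, 0.00702). Uncalled values that moved were Plag1 in nTregs (0.0065 after centring), the dimmer Plagl1 row in CD4 cells (0.043 after a second quantile normalization, 0.027 with array weights) and Plagl2 under PBS (0.09 and 0.19). The dimmer Plagl1 row has no value without dim rows or with 1 row per gene.

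With 1 array left out, differences ran from −0.17 to 0.023 (Plag1) and 0.56 to 0.94 (Plagl2) in nTregs, from −0.076 to 0.021 (dimmer Plagl1 row) and −0.61 to −0.44 (Plag1) in CD4 cells, from −0.14 to 0.24 (Plagl2) under PBS, and from 0.49 to 0.66 (Plag1) and 0.51 to 0.68 (Plagl2) between the populations with AzaC.

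Counts of called rows moved more. In nTregs 436 became 129 with only the groups compared, 219 with every row, 1252 with array weights and 237 without moderation. In CD4 cells 386 became 255, 1241 and 206 with the last 3 settings. For the difference of the effects 40 became 86 after centring and 13, 361 and 6 with those 3. Under PBS 1785 became 657 with only the groups compared and 1124 without moderation, and with AzaC 1507 became 2261 with only the groups compared and 3448 with array weights. With 1 array left out these counts were 181 to 438, 155 to 1048, 10 to 67, 1043 to 1864 and 894 to 2458. Centring moved the share of called rows that were higher from 69.7% to 83.4%, 46.6% to 28.8%, 72.5% to 91.9%, 49.0% to 37.6% and 67.6% to 81.9% in the same order. The cause of these changes was not tested.

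Arrays with the same replicate number had weakly correlated deviations from their group means (r from −0.09 to 0.18 over 4 comparisons). Whether they share mice or cultures is not given by the labels and cannot be told from these correlations. The replicate block changed no other call of a family row.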
